A study of Homo sapiens with 18 samples.

Results

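The major histocompatibility complex (MHC) on the short arm of chromosome 6 held 269 of the 79483 regions of open chromatin found in 18 ATAC-seq libraries of PC9 cells. ATAC-seq marks open DNA through a transposase that inserts sequencing adapters where DNA is accessible. The peaks of the 18 libraries were merged wherever they shared at least 1 bp, and every merged region whose midpoint lay in chr6:28477000-33448000 (hg19) was taken. The interval was divided by position into class I (up to 31.5 Mb, 174 regions), class III (31.5 to 32.2 Mb, 56 regions) and class II (above 32.2 Mb, 39 regions). The choice used position alone and no measured value of openness.

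PC9 is an established cell line from a human lung adenocarcinoma with an activating EGFR mutation, and every group came from it. DTP (drug-tolerant persister) cells were those still alive after 8 days with erlotinib, which blocks the EGFR kinase, at 1 µM, and PC9 was the unsorted population given the vehicle DMSO. The remaining 4 groups, ALDH-low with erlotinib, ALDH-low with DMSO, ALDH-high with erlotinib and ALDH-high with DMSO, had 12 h of 1 µM erlotinib or of DMSO before a sort on Aldefluor, a dye made fluorescent by aldehyde dehydrogenase (ALDH). Each group had 3 libraries, a, b and c, which are not described as separate cultures; a p-value here measures library-to-library spread, and that may be technical. ALDH-low and ALDH-high are gates of 1 cell line and not separate lines, and DTP cells are survivors, so in these bulk samples a region open in more cells and a region more open per cell cannot be told apart.

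The MHC carries the genes by which cells show peptides to T cells. Class I molecules (HLA-B and HLA-C among their heavy chains) present peptides from inside the cell on most nucleated cells, while class II molecules (HLA-DR, HLA-DQ and HLA-DP) present peptides from outside it, mainly on immune cells and on other cells exposed to interferon-gamma. Between them lie the class III genes, among them TNF, lymphotoxin and complement genes, and the class II part also holds TAP1, TAP2, PSMB8 and PSMB9, which make and carry peptides for class I. In the order of protein-coding genes in RefSeq (GRCh38.p14), TRIM27 and ZNF311 come first, followed by a run of olfactory receptor genes, then HLA-F, HLA-G, HLA-E, HLA-C and HLA-B, TNF, the complement genes C2, CFB, C4A and C4B, the HLA-DR and HLA-DQ genes, TAP2 to PSMB9, the HLA-DP genes, and last KIFC1. An annotation of the files' build was not used here, so that order is background and no region was assigned to a gene.

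Open regions were denser in the MHC than along the rest of chromosome 6. The interval held 54.1 regions per Mb, against 29.9 per Mb on the rest of chromosome 6 and 27.0 per Mb over the chromosomes analysed. Class III was the densest part at 80.0 per Mb, class I held 57.6 per Mb, and class II, at 31.3 per Mb, lay near the chromosome's level. The regions covered 6.83% of the MHC, 6.92% of class I, 11% of class III and 4.25% of class II, against 3.34% of the rest of chromosome 6. Because the union grows with every peak of every library, these densities describe 18 lists together and not a single group.

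The regions were unevenly spaced. Of 50 bins of 100 kb, the last of them shorter, 6 held no region and the median bin held 5.5. The fullest bin, chr6:28677000-28776999 in the telomeric end of class I, held 13 regions, and the next, chr6:31677000-31776999 in class III, held 12. The longest stretch without a region ran 342 kb, from 29040329 to 29382192, in class I. The next longest stretches, 206 kb from 32578231 to 32784205 and 196 kb from 32381674 to 32577264, both lay in class II. The median gap between neighbouring regions was 9.14 kb, so these 3 stretches stood far above the usual spacing. A stretch without a region is one where no library had a called peak, and how well reads of that stretch could be placed was not tested.

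**Figure D1:**
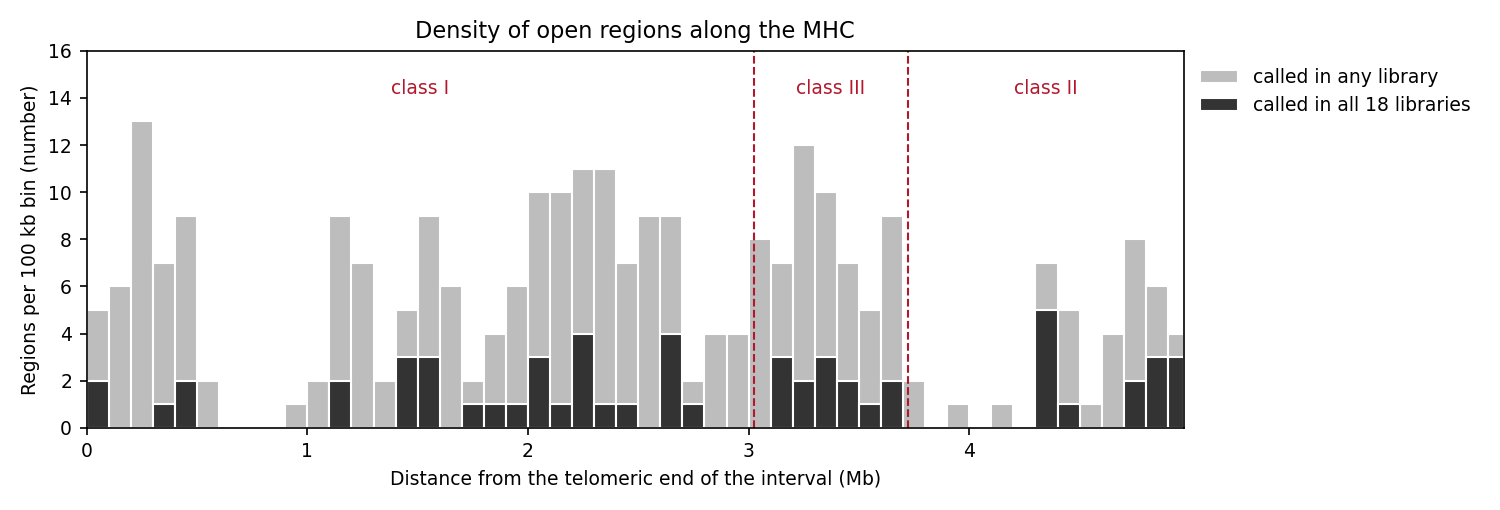
Regions per 100 kb bin along the MHC, by distance from its telomeric end in Mb; grey bars count regions called in any library and black bars those called in all 18. The fullest bin held 13 regions, 6 bins were empty, and dashed lines mark the limits of class I, class III and class II.

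At the edges of the interval, the outermost regions inside were chr6:28510024-28511241 and chr6:33421459-33422943, each called in all 18 libraries. The nearest regions outside were chr6:28456824-28458569, called in 17 libraries, and chr6:33479793-33480459, called in 2, both of DTP. At 31.5 Mb, the last region of class I was chr6:31493945-31494456, called in 1 library, and the first of class III was chr6:31508984-31510904, called in 16. At 32.2 Mb, chr6:32162666-32164766, called in all 18, closed class III and chr6:32212424-32213054, called in 1, opened class II.

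A core of 58 MHC regions was called in all 18 libraries. They were 21.6% of the MHC regions, against 17.7% of all regions. The share was 17.8% in class I (31 regions), 23.2% in class III (13 regions) and 35.9% in class II (14 regions), so the part with the fewest regions per Mb had the largest share called throughout. At the other end, 37 MHC regions (13.8%) were called in a single library, against 21.2% of all regions. A further 69 regions were called in 2 to 5 libraries, 44 in 6 to 11 and 61 in 12 to 17.

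Regions called in more libraries were wider and carried higher scores. Median width was 1769 bp for those in all 18 libraries, 1324 bp for 12 to 17, 1067 bp for 6 to 11, 848 bp for 2 to 5 and 564 bp for a single library. A merged region can only widen as libraries are added, so width and number of libraries share their construction. Each peak has a score deposited by the authors, of unstated scale; it is given here as a percentile, the peak's rank within its own library's list, and was compared only within lists. The median percentile over the libraries that called a region, taken over regions, was 70.7 for the core, 39.0 for 12 to 17 libraries, 25.5 for 6 to 11, 16.2 for 2 to 5 and 10.2 for a single library. Regions called in few libraries thus sat near the bottom of the lists that held them.

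The core regions named here are, in each part, the 3 widest and the 3 whose weakest library ranked them highest. In class I the widest was chr6:30709126-30713029 (3904 bp). Its score percentiles were 60.3, 74.8 and 77.6 in DTP libraries a, b and c, against 72.2, 71.5 and 66.1 in PC9 libraries. They were 85.5, 86.2 and 79.3 in ALDH-low erlotinib libraries against 70.3, 67.0 and 67.4 in ALDH-low DMSO libraries, and 82.5, 77.9 and 85.8 in ALDH-high erlotinib libraries against 76.4, 58.1 and 78.5 in ALDH-high DMSO libraries. The region ranked in the upper part of every list; percentiles from lists of different length show no change and are given as a description. The other wide class I core regions were chr6:28889537-28892710 and chr6:30293154-30295582. The highest-ranked was chr6:30034039-30035749, with percentiles between 70.4 and 97.1, followed by chr6:30719478-30720977 and chr6:30684443-30686020.

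In class III the widest core region was chr6:32143731-32146786 (3056 bp), with percentiles between 52.9 and 91.2, followed by chr6:31781521-31783953 and chr6:32013539-32015862. The region of the MHC ranked highest by its weakest library was chr6:32162666-32164766, which lay between percentile 86.1 (ALDH-low DMSO a) and 98.2 (ALDH-high DMSO a). It was among the top peaks of every list, vehicle and drug alike. The next in class III were chr6:31587281-31589171 and chr6:31829983-31832217.

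In class II the widest core region, chr6:33264543-33268411 (3869 bp), was not among the strong ones. Its percentiles were 23.7, 21.7 and 30.8 in DTP against 47.2, 35.6 and 54.8 in PC9, 62.4, 47.4 and 40.4 in ALDH-low erlotinib against 34.6, 57.3 and 33.9 in ALDH-low DMSO, and 45.0, 36.8 and 42.9 in ALDH-high erlotinib against 6.59, 21.8 and 6.85 in ALDH-high DMSO. Its percentile was lower in each DTP library than in each PC9 library, and higher in each ALDH-high erlotinib library than in each ALDH-high DMSO library. These percentiles come from lists of different length, so they are a description and show no change in openness. The other wide ones were chr6:32938942-32942146 and chr6:32820277-32822454, whose percentiles lay between 48.5 and 93.1. The highest-ranked were chr6:33358690-33360230, between 81.4 and 96.9, then chr6:33421459-33422943, between 80.0 and 94.6, and chr6:33384785-33386828.

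Each library had 1 peak list, of 26225 to 45241 peaks, and read depth is unknown, so a region not called may be closed or too shallowly sequenced. The DTP lists averaged 44106 ± 1658 peaks and the PC9 lists 40443 ± 1253 (SD, n = 3 libraries each, as for every mean below). The ALDH-low lists averaged 36570 ± 4045 peaks with erlotinib and 26343 ± 108 with DMSO, and the ALDH-high lists 38542 ± 3660 with erlotinib and 31210 ± 1395 with DMSO. List length therefore moved with treatment, and the numbers of regions called, gained and lost were also taken from lists of equal size, cut to the top 26225 peaks by score. Counts over pairs of libraries, over shared gains and of agreement within a group are given for the lists as deposited.

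The first comparison set the persisters against the cells they came from. In DTP, the MHC had about as many called regions as in PC9 on the lists as deposited. They were divided differently among its parts: fewer class I regions and more class II regions were called in DTP. Class III counts were also higher in DTP, though per 1000 regions called genome-wide the groups overlapped. DTP libraries a, b and c called 145, 162 and 161 MHC regions, against 157, 155 and 153 in PC9, and the groups overlapped. The means were 156 ± 9.54 in DTP and 155 ± 2.00 in PC9, a ratio of 1.01, while over all regions DTP called 1.09 times as many as PC9. With lists of equal size the direction turned: DTP libraries called 87 to 96 MHC regions (91.3 ± 4.51) and PC9 libraries 98 to 108 (102 ± 5.29), without overlap.

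By part, class I counts were 85, 95 and 95 in DTP, against 103, 102 and 102 in PC9. Every DTP library called fewer class I regions than every PC9 library, with means of 91.7 ± 5.77 in DTP and 102 ± 0.577 in PC9. Class III went the other way, with 34, 36 and 36 in DTP against 32, 31 and 28 in PC9. Class II counts were 26, 31 and 30 in DTP and 22, 22 and 23 in PC9, a ratio of 1.30, again without overlap. Per 1000 regions called genome-wide, class I took 2.10 ± 0.0575 in DTP and 2.57 ± 0.0817 in PC9, and class II took 0.663 ± 0.0387 in DTP and 0.560 ± 0.00538 in PC9. Class III took 0.809 ± 0.00442 in DTP and 0.762 ± 0.0719 in PC9, and the groups overlapped (0.804 in DTP c, 0.808 in PC9 a). With lists of equal size, class I averaged 51.0 ± 3.46 in DTP against 65.7 ± 3.51 in PC9, still apart. With at least 50% of a region required to be covered by peaks, the class I counts overlapped (77 to 83 in DTP, 79 to 91 in PC9). On the lists of equal size every DTP library called 18 class II regions while PC9 libraries called 13 to 17, and in class III the groups overlapped (20 to 24 in DTP, 19 to 22 in PC9). No p is given for these counts, and 3 libraries against 3 cannot give an exact two-sided p below 0.1.

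**Figure D2:**
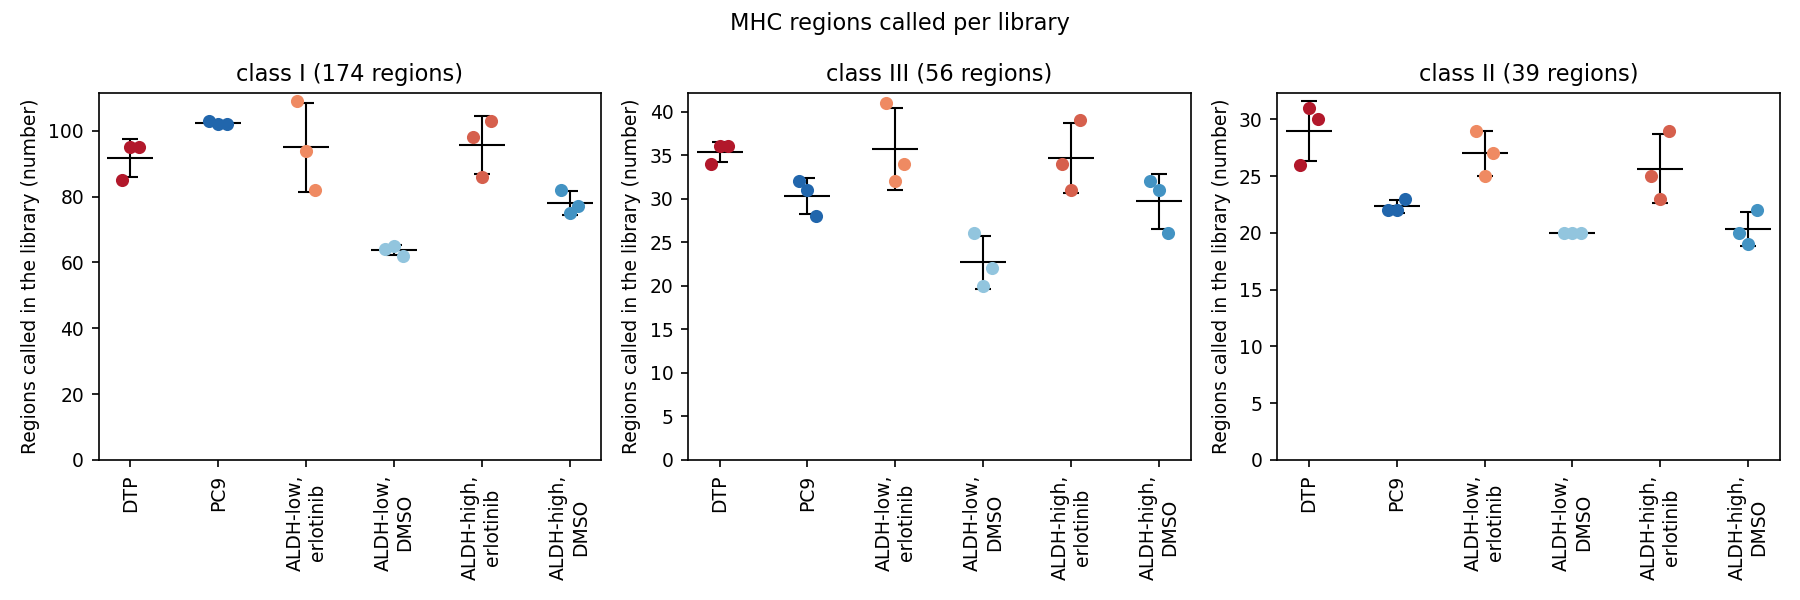
MHC regions called in each library (points), with the group mean (dash) and SD (bars, n = 3), for class I, class III and class II. The class I points of DTP (85 to 95) lie below those of PC9 (102 to 103), while both sorted fractions called more class I regions with erlotinib than with DMSO, as they did over all regions.

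A region was called gained in DTP where all 3 DTP libraries and no PC9 library called it, and lost in the reverse case. Of the 223 MHC regions called in at least 1 of these 6 libraries, 13 (5.83%) were gained, where 6.75% of all regions were, and 6 (2.69%) were lost, where 3.68% of all regions were. Both shares lay somewhat below the genome-wide ones on the lists as deposited. The gains comprised 7 in class I, 2 in class III and 4 of the 35 class II regions (11.4%), and the 6 losses were all in class I. With a minimum score of 100 there were 7 gains (3.80%, where 6.52% of all regions were gained), and with lists of equal size 0 gains and 7 losses among 155 MHC regions, where 5.47% of all regions were gained and 5.03% lost on those lists. There were 11 losses without DTP c or without PC9 a, and 10 without PC9 c. A library left out can only raise such counts, for any set of regions, and the matching shares of all regions are not given here. On the lists as deposited, a further 97 regions were called in all 6 libraries (43.5%, against 36.7% of all regions).

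Of the 13 gains, 4 were called in the 3 DTP libraries and in none of the other 15. Over all regions, 1861 of the 4446 gains were called in DTP alone in this way. Class I region chr6:30727054-30728095 stood at score percentiles 34.6, 41.5 and 46.9 in DTP a, b and c, and class III region chr6:31887456-31888321 at 46.9, 42.8 and 30.2. Class I regions chr6:30894292-30894966 (51.4, 25.5 and 49.3) and chr6:29629388-29630037 (19.2, 22.6 and 37.9) completed this set. They were mid-list peaks at most, the highest just above the middle of its list.

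The class II gains were shared with cells treated for 12 h to different degrees. Region chr6:32784206-32785243 was at percentiles 69.2, 36.0 and 49.2 in DTP and absent from PC9; it was also called in all 3 ALDH-low erlotinib libraries (57.3, 20.8 and 30.6) and 1 ALDH-low DMSO library (37.3), and in 1 ALDH-high erlotinib (47.7) and 1 ALDH-high DMSO library (21.8). This region closes the 206 kb stretch without regions. Region chr6:33342798-33343829 (24.9, 47.9 and 11.6 in DTP) was called in all 6 sorted erlotinib libraries and 1 sorted DMSO library. Region chr6:33312679-33313548 (32.2, 57.3 and 47.4 in DTP) was called in 5 sorted erlotinib libraries and in no DMSO library of any kind. Region chr6:32908522-32909222 (33.7, 34.1 and 38.1 in DTP) had a call in 1 ALDH-high erlotinib library only.

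In class I, region chr6:31324323-31325500 was called at 56.6, 31.5 and 16.9 in DTP, in all 3 ALDH-high erlotinib libraries (24.7, 33.4 and 32.7), in ALDH-low erlotinib a (21.5) and in ALDH-high DMSO a (22.2). Region chr6:30811555-30812484 was called at 41.0, 21.2 and 53.7 in DTP and at 5.93, 15.5 and 2.60 in ALDH-high erlotinib libraries, and in no other library. Both were thus shared by the persisters and ALDH-high cells under drug. The remaining class I gains, chr6:30068069-30069239 and chr6:30059289-30060356, lay close together and were called in 2 and 3 sorted libraries. The remaining class III gain, chr6:31714630-31715591 (13.0, 52.4 and 13.8 in DTP), was called in 6 sorted libraries, among them all 3 of ALDH-high DMSO.

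Of the 6 losses, 4 lay in the telomeric end of class I. Region chr6:28948358-28950866, at percentiles 17.5, 29.3 and 31.2 in PC9 a, b and c, and its neighbour chr6:28956145-28957441, at 30.7, 27.4 and 49.7, were absent from DTP while 8 of the 12 sorted libraries called each of them. Region chr6:28663173-28664297 (38.2, 36.2 and 39.5 in PC9) was otherwise called in ALDH-high DMSO a and b, and chr6:28702876-28703561 (37.3, 9.94 and 2.40 in PC9) in no other group. The other losses, chr6:29764815-29765558 and chr6:29960510-29961360 (47.7, 21.6 and 54.0 in PC9), were each called in a single library outside PC9, ALDH-high DMSO b.

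On the lists as deposited, most of the class I difference between DTP and PC9 fell in that telomeric stretch. From the start of the interval to the 342 kb gap, a stretch chosen after its values were seen, there were 42 regions over 563 kb. DTP libraries called 17, 20 and 17 of them (mean 18 ± 1.73), against 30, 27 and 25 in PC9 (27.3 ± 2.52). In the remaining 132 class I regions, DTP called 68, 75 and 78 and PC9 73, 75 and 77, which overlapped. The 4 losses in the stretch were met by no gain there, and 7 gains and 2 losses fell in the rest of class I. With lists of equal size the stretch held 10, 8 and 8 called regions in DTP and 19, 19 and 18 in PC9, with a minimum score of 100 it held 13, 17 and 13 in DTP and 25, 21 and 20 in PC9, and with 50% cover 14, 17 and 11 in DTP and 28, 25 and 22 in PC9. Because the stretch was picked for this difference, its counts are a description and support nothing further. In the remaining 132 regions the settings differed in direction: on equal lists the means were 42.3 ± 2.31 in DTP and 47 ± 3.00 in PC9, and with 50% cover 65.3 ± 1.15 in DTP and 59.7 ± 3.06 in PC9, with 64 to 66 regions in DTP libraries and 57 to 63 in PC9 libraries.

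**Figure D3:**
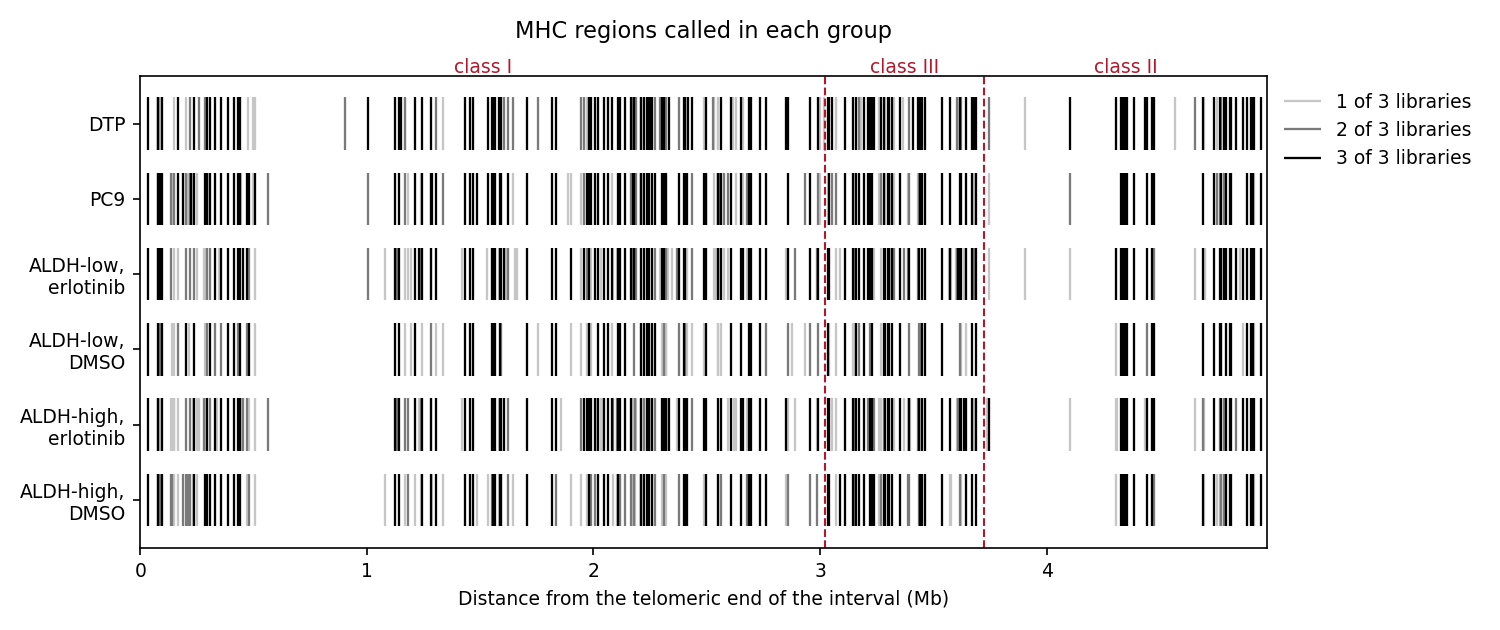
Each MHC region as a vertical line at its distance from the telomeric end of the interval in Mb, for the 6 groups; light grey, dark grey and black mark regions called in 1, 2 and 3 of the group's libraries. In the first 0.563 Mb, DTP called 17 to 20 regions and PC9 25 to 30; the wide empty stretch that follows is the 342 kb gap.

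On the lists as deposited, the regions gained in DTP were called in the sorted cells more often under erlotinib than under DMSO, as MHC regions were in general. Over the 13 gains, 37.2% of region-by-library combinations were called in the 6 sorted erlotinib libraries and 11.5% in the 6 sorted DMSO libraries, where the 4446 gains of all regions gave 32.1% with erlotinib and 4.56% with DMSO. The 269 MHC regions together were called in 58.6% of combinations with erlotinib and 39.5% with DMSO in ALDH-low cells, and in 58.0% with erlotinib and 47.6% with DMSO in ALDH-high cells, where the erlotinib lists were longer. Lists of equal size gave 0 DTP gains, so no such share exists for them. Of the 13, 7 were called in more erlotinib than DMSO libraries, 6 in equally many and 0 in fewer. The 6 losses ran the other way, called in 22.2% of combinations with erlotinib and 33.3% with DMSO, where all losses gave 24.5% with erlotinib and 36.4% with DMSO. The MHC losses lay near all losses under both treatments. The MHC gains were called under DMSO at a higher share than all gains, 11.5% against 4.56%. Of the 13 MHC gains, 7 were called in no sorted DMSO library, where 3731 of the 4446 gains of all regions were.

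Erlotinib for 12 h was compared with DMSO within each ALDH fraction. More MHC regions were called with erlotinib in both fractions and in class I and class II alike, and nearly all regions that separated the treatments were gains. In ALDH-low cells, erlotinib libraries a, b and c called 179, 151 and 143 MHC regions, against 110, 105 and 104 in DMSO libraries. The means were 158 ± 18.9 with erlotinib and 106 ± 3.21 with DMSO, a ratio of 1.48, beside 1.39 over all regions. In ALDH-high cells, erlotinib libraries called 157, 140 and 171, against 134, 125 and 125 with DMSO. Here the means were 156 ± 15.5 with erlotinib and 128 ± 5.20 with DMSO, a ratio of 1.22, beside 1.23 over all regions.

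The differences were small or nil with lists of equal size. ALDH-low cells then called 112 ± 3.21 MHC regions with erlotinib and 106 ± 3.61 with DMSO, and ALDH-high cells 105 ± 4.04 with erlotinib and 105 ± 5.69 with DMSO, the groups overlapping in both fractions. In class II the ALDH-low groups did not overlap on these lists, with 21 to 23 regions in erlotinib libraries and 20 in each DMSO library, while in class I they did (63 to 68 with erlotinib, 61 to 65 with DMSO). In ALDH-high cells each erlotinib library then called 20 class II regions and DMSO libraries called 15 to 20.

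By part, ALDH-low erlotinib libraries called 109, 94 and 82 class I regions against 64, 65 and 62 with DMSO, 41, 32 and 34 class III regions against 26, 20 and 22, and 29, 25 and 27 class II regions against 20 in each DMSO library. No part overlapped between treatments in this fraction, and neither did all regions (32282 to 40295 with erlotinib, 26016 to 26221 with DMSO). The ratios were 1.49 in class I, 1.57 in class III and 1.35 in class II, beside 1.39 over all regions. In ALDH-high cells the class I counts were 98, 86 and 103 with erlotinib against 82, 75 and 77 with DMSO, and class II counts were 25, 23 and 29 against 20, 19 and 22, without overlap. Class III counts in ALDH-high cells, 34, 31 and 39 with erlotinib against 32, 31 and 26 with DMSO, overlapped. All regions did not overlap in ALDH-high cells (34006 to 40341 with erlotinib, 30061 to 32497 with DMSO).

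In ALDH-low cells, 13 of 215 MHC regions (6.05%) were gained with erlotinib, where 6.82% of all regions were, and 0 were lost, where 0.887% of all regions were. In ALDH-high cells, 9 of 224 (4.02%) were gained, where 4.52% of all regions were, and 1 (0.446%) was lost, where 0.998% of all regions were. On the lists as deposited, the 4 MHC shares lay below the genome-wide ones. With lists of equal size each fraction had 6 gains (3.70%) and 2 losses (1.23%) in the MHC, where 3.39% of all regions were gained and 2.76% lost in ALDH-low cells, and 3.01% gained and 2.42% lost in ALDH-high cells. In ALDH-low cells the share gained was also above that of all regions with 50% cover (21 gains, 9.81% against 7.40%) and with a minimum score of 100 (17 gains, 10.2% against 8.67%), so whether the MHC lay above or below all regions turned on the setting. ALDH-low cells had 23 gains without erlotinib c and 21 without DMSO a, and ALDH-high cells had 16 without erlotinib b. Leaving out a library can only raise such counts, and the matching shares of all regions are not given here. The lost region, chr6:31565996-31566854 in class III, was called in all 3 ALDH-high DMSO libraries at percentiles 3.24, 3.51 and 14.7, near the bottom of their lists.

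**Figure D4:**
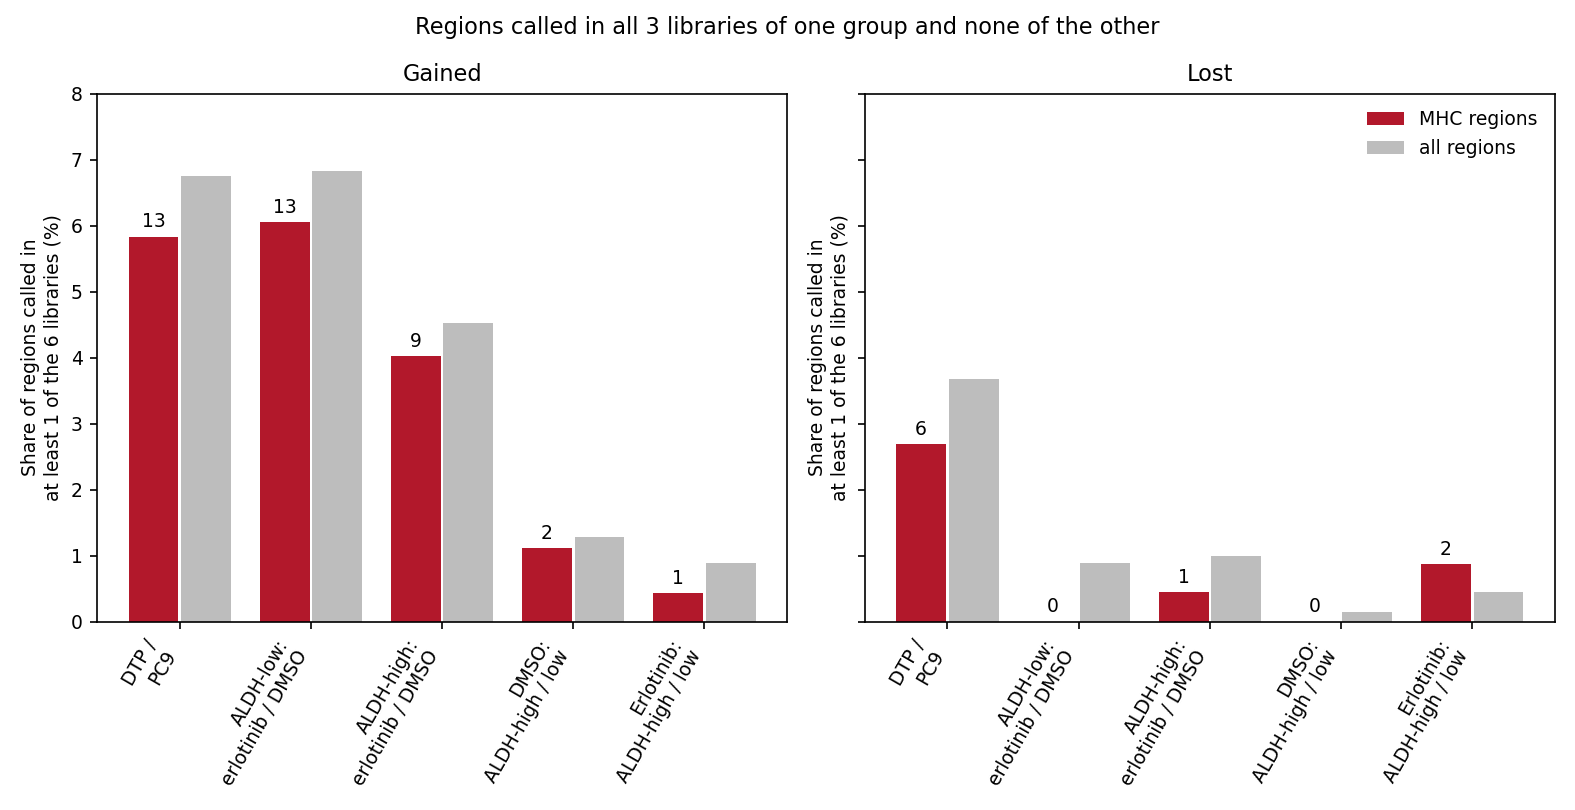
Share of MHC regions (red, with their number above the bar) and of all regions (grey) that were gained or lost in each comparison, as a percentage of regions called in at least 1 of its 6 libraries. On the lists as deposited, the MHC share in 9 of the 10 pairs of bars is below that of all regions, but each MHC bar rests on 13 regions or fewer. The exception is the 2 regions lost in ALDH-high cells relative to ALDH-low cells under erlotinib. The direction depended on the setting: with lists of equal size the MHC share gained in ALDH-low cells was above that of all regions (3.70% against 3.39%).

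Of the gains, 3 class I regions were gained in both fractions, called in every sorted erlotinib library and in no sorted DMSO library (3 of the 248 regions called in any sorted library, 1.21%, where 1.55% of all regions were; the reverse held for 0, where 0.16% of all regions were). They were 23.1% of the ALDH-low gains and 33.3% of the ALDH-high gains, where over all regions the shared gains were 27.7% of the ALDH-low and 39.0% of the ALDH-high ones. Region chr6:30080466-30081668 was the strongest, at percentiles 60.1, 64.1 and 57.1 in ALDH-low and 60.2, 63.1 and 53.9 in ALDH-high erlotinib libraries. It was weak in DTP a and b (17.1 and 7.63) and not called in DTP c or in PC9. Region chr6:31136889-31138241 stood at 65.0, 31.1 and 64.8 in ALDH-low and 56.8, 46.2 and 55.4 in ALDH-high erlotinib libraries, and outside the sorted cells was called in DTP b (18.9) and PC9 b (7.57). Region chr6:30433810-30434949 ranged from 2.37 to 51.7 over the 6 erlotinib libraries and was called in 2 DTP and 2 PC9 libraries. The first and the second ranked lower in the DTP libraries that called them than in any 12 h erlotinib library. The 3 regions were picked for their calls in the sorted erlotinib libraries, and the lists differ in length. Lower ranks elsewhere are therefore a description only. How often such regions of the whole series ranked low in DTP was not tested.

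**Figure D5:**
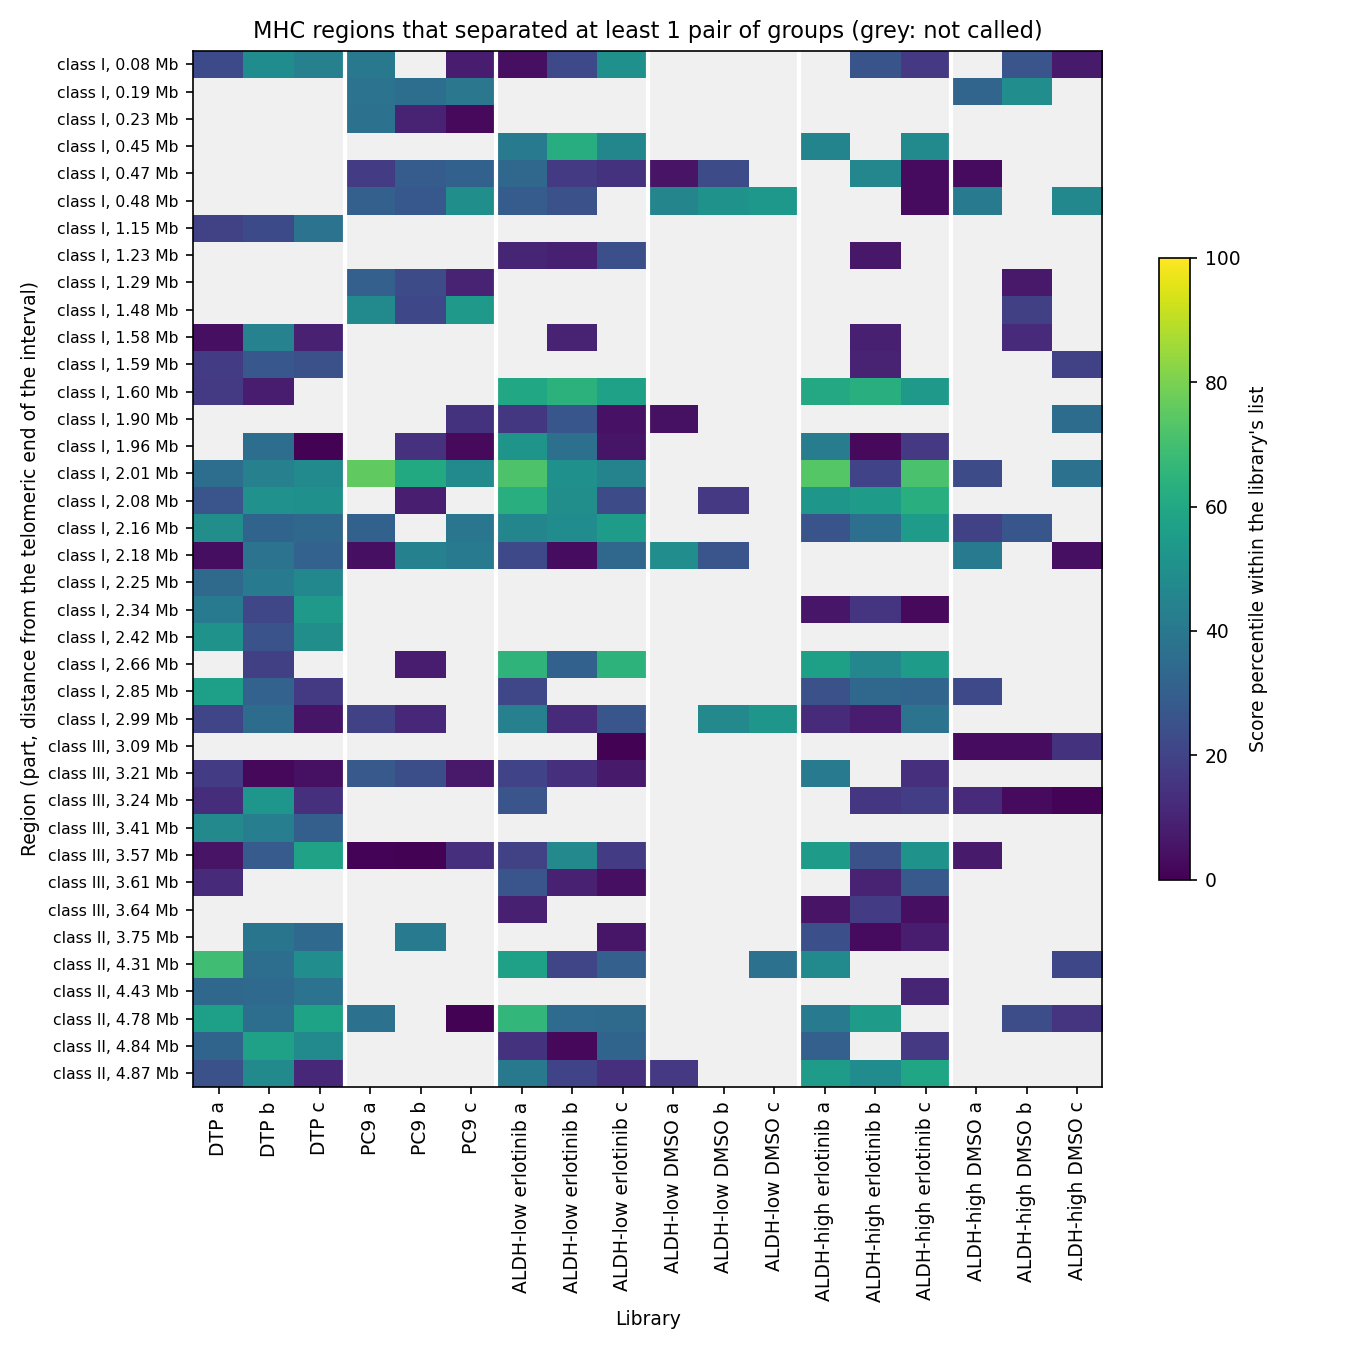
The 38 MHC regions that separated at least 1 pair of groups, in order along the chromosome (part and distance from the telomeric end in Mb), by library; colour gives the score percentile within that library's list and grey means not called. DTP columns are filled and PC9 columns grey for 13 regions, the reverse holds for 6, and 3 regions are filled in all 6 sorted erlotinib columns and grey in all 6 sorted DMSO columns.

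Each region was also tested over the 12 sorted libraries by an exact two-sided permutation test that exchanged treatment labels within fractions, with Benjamini-Hochberg adjustment over the 13213 regions whose smallest attainable p was under 0.1. Of the 53 MHC regions among them, 10 (18.9%) were called in more erlotinib libraries at unadjusted p under 0.05, where 21% of all tested regions were, and 0 in fewer, where 2.72% of all tested regions were. No MHC region passed adjustment: the 3 regions called in all 6 erlotinib and no DMSO library had p = 0.005, the smallest this test can give, and exact test adjusted p = 0.0599. The other 7 had p = 0.02 and exact test adjusted p = 0.0843. Adjusted instead over the 6480 regions able to reach p under 0.05, a set chosen after seeing the data, all 10 passed. The exact test adjusted p was 0.0294 for the 3 and 0.0413 for the 7. They were 10 of the 23 MHC regions in that set, where 3135 of all 6480 passed. The call after adjustment therefore depended on which regions entered the correction.

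The 7 regions lay in all 3 parts. In class I they were chr6:28928412-28929690, at percentiles 41.2, 62.3 and 45.9 in ALDH-low and 45.0 and 47.8 in ALDH-high erlotinib libraries a and c and called nowhere else, and chr6:30558446-30559673, in all 6 erlotinib libraries (23.2 to 63.0) and 1 sorted DMSO library (16.5). The first of these lies in the telomeric stretch where DTP called fewer regions, and neither DTP nor PC9 called it. In class III they were chr6:31685763-31686818, chr6:32050292-32051603 and chr6:32086410-32087334. In class II they were chr6:33312679-33313548 and chr6:33342798-33343829, both also gained in DTP.

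Some of the gains in ALDH-low cells were called in most other libraries of the series, the ALDH-low DMSO lists being the shortest. In ALDH-low cells the highest-ranked were chr6:28928412-28929690, above, then chr6:30483541-30484815 and chr6:30639949-30641228. Region chr6:30483541-30484815 was at 71.9, 50.3 and 44.7 in ALDH-low erlotinib libraries and in no ALDH-low DMSO library, yet 11 of the other 12 libraries called it, among them ALDH-high DMSO a and c (23.1 and 37.8). Region chr6:30639949-30641228 (45.7, 48.7 and 54.9) was likewise called in ALDH-high DMSO a and b. The other named gains in ALDH-low cells were chr6:29705507-29706352, chr6:28554113-28555682 and chr6:33256543-33257897, beside those given above. In ALDH-high cells they were chr6:31465178-31466642, chr6:32111664-32112484 and chr6:32222711-32223660, whose ALDH-high erlotinib percentiles did not exceed 38.1.

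ALDH-high was compared with ALDH-low cells under each treatment. Under DMSO, ALDH-high libraries called 134, 125 and 125 MHC regions and ALDH-low libraries 110, 105 and 104, which did not overlap, a ratio of 1.20 beside 1.18 over all regions. With lists of equal size the means were 105 ± 5.69 in ALDH-high and 106 ± 3.61 in ALDH-low cells and overlapped. Of 180 regions, 2 (1.11%) were gained in ALDH-high cells, where 1.28% of all regions were, and 0 were lost, where 0.14% of all regions were. Both gains lay in class III: chr6:31714630-31715591, at 12.2, 2.93 and 0.999 in ALDH-high DMSO libraries, and chr6:31565996-31566854. They were among the weakest peaks of the lists that held them, and with lists of equal size 0 regions were gained. With 50% cover 4 regions were gained (2.31%, where 1.38% of all regions were), and leaving out 1 library at a time gave 4 to 9, with 9 without ALDH-high DMSO c, 6 without ALDH-high DMSO a or b or ALDH-low DMSO a, 5 without ALDH-low DMSO c and 4 without ALDH-low DMSO b. Such counts can only rise when a library is left out, and the matching shares of all regions are not given here.

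Under erlotinib, ALDH-high libraries called 157, 140 and 171 MHC regions, and ALDH-low libraries 179, 151 and 143. Of 231 regions, 1 (0.433%) was gained in ALDH-high cells, where 0.893% of all regions were, and 2 (0.866%) were lost, where 0.446% of all regions were. The gain was chr6:30811555-30812484, the region shared with DTP. The losses were chr6:30379180-30379919 (16.1, 26.6 and 4.84 in ALDH-low erlotinib libraries) and chr6:30653880-30656228 (22.1, 3.15 and 33.4), and the second of these was called in every DTP and PC9 library as well. With lists of equal size 0 were gained and 0 lost.

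Over both treatments, 0 MHC regions were called in all 6 libraries of one fraction and none of the other, where 0.0186% of all regions were called in ALDH-high alone and 0% in ALDH-low alone. In the exact permutation test of fraction within treatments, 32 MHC regions were among the 6377 tested and 0 reached an unadjusted p under 0.05, where 1.57% of all tested regions were higher in ALDH-high cells and 0.125% lower. The smallest MHC value was p = 0.08 in the exact test, for chr6:30889887-30891098, with exact test adjusted p = 0.889. A difference between the fractions in the MHC was therefore not detected at this number of libraries, which does not show that they were alike.

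Libraries of 1 group differed from each other at many MHC regions. Any 2 DTP libraries differed in whether they called 38 to 47 of the 269 regions (mean 42.0) and any 2 PC9 libraries at 38 to 50 (mean 44.0), whereas a DTP and a PC9 library differed at 62 to 75 (mean 69.0). The ranges within and between these groups did not overlap. Such counts are given for MHC regions only, so they do not set the MHC apart from other regions. Over all regions 6.75% were gained and 3.68% lost in DTP. Between the ALDH fractions under DMSO the ranges did overlap, with 46 to 62 regions between groups (mean 52.8), 49 to 56 within ALDH-high DMSO (mean 52.7) and 39 to 46 within ALDH-low DMSO (mean 42.7). Erlotinib and DMSO libraries differed at 59 to 88 regions in ALDH-low cells (mean 70.9) and at 58 to 82 in ALDH-high cells (mean 69.1), and this count includes the effect of unequal list length. Within groups, erlotinib libraries differed at 50 to 60 regions in ALDH-low cells and at 55 to 67 in ALDH-high cells.

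Agreement within a group also set how many regions could be called gained or lost. DTP called 126 MHC regions in all 3 libraries, 27 in 2 and 36 in 1, and PC9 called 123 in all 3, 30 in 2 and 36 in 1. Of the regions each group called at all, 66.7% in DTP and 65.1% in PC9 were called in all 3 libraries, where 60.1% in DTP and 62.1% in PC9 were over all regions. ALDH-low cells called 120 regions in all 3 libraries with erlotinib and 77 with DMSO, and ALDH-high cells 114 with erlotinib and 89 with DMSO. As shares of the regions called at all, these were 59.1% and 54.6% in ALDH-low cells, where all regions gave 55.6% and 51.1%. In ALDH-high cells they were 55.1% with erlotinib and 53.0% with DMSO, where all regions gave 55.7% and 53.3%. The MHC thus lay near all regions, and the counts also follow list length.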

How the data were processed

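Each library had 1 deposited peak list, in hg19 coordinates. Per the submitters' processing notes, the authors used BWA, MACS 1.4.2 and hg19. Read trimming, duplicate removal, transposase shifting, calling parameters and later filters were not given in the sources used here. The deposited score of each peak is the authors' own value, of unstated scale, with a lowest value of 70. Autosomal and X-linked peaks were merged where they shared at least 1 bp (Python 3.11.15, numpy 2.4.6, pandas 2.3.3). The union was checked against bedtools 2.31.1, and the calls were tested on simulated data. A region counts as called in a library that has any peak within it. Gains and losses are counts; the 12-library tests are exact permutation tests over 400 assignments with Benjamini-Hochberg adjustment over all testable regions. Groups were taken from the sample labels. Regions named are those gained or lost (at most 12 per comparison and direction, by the percentile in the weakest library), those separating treatments fully, the core regions described, and those with the smallest p (at most 10 per test). A gain beyond 12, chr6:31714630-31715591, and the telomeric stretch were added after their values were seen. The regions and lists were chosen with earlier results of these data known. Alternatives were a score of at least 100, at least 50% of the region covered, lists of equal size, regions wholly inside the interval, each library left out, and a replicate block. Intervals that need read depth are not given, since depth is unknown.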

Additional observations from a re-analysis of the deposited data

Results flagged for a closer look

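On the lists as deposited, the number of class I regions called moved in opposite directions after 8 days and after 12 h of erlotinib. Its mean difference was -10.7 regions in DTP against PC9, with every DTP library below every PC9 library. It was 31.3 regions higher with erlotinib than with DMSO in ALDH-low cells and 17.7 higher in ALDH-high cells, again with no overlap between libraries. As ratios of erlotinib to DMSO, class I gave 1.49 in ALDH-low cells, beside 1.39 over all regions. In ALDH-high cells class I gave 1.23, beside 1.23 over all regions. For DTP over PC9, class I gave 0.896 and all regions 1.09. The difference between these effects was not tested, and the comparisons differ in time, sorting and list length together. With lists of equal size the differences were -14.7 in DTP against PC9, 1.67 in ALDH-low cells and -3.33 in ALDH-high cells. On those lists the libraries overlapped in both 12 h comparisons, and the ALDH-high difference had the same sign as that of DTP.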

How the results depend on the processing

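Of 182 values under alternatives, 125 were labelled the same, 51 moved and 6 reversed. A count was labelled the same within a set fold range. A mean difference was labelled so where it shifted by less than the SD between libraries without changing sign. For DTP against PC9, a mean difference of 4.67 with a score of at least 100, in place of 1.00, was thus labelled the same. No region crossed the edges of the interval, so taking only regions wholly inside it could not change a count. Nor could a replicate block for DTP against PC9. Lists of equal size had the widest effect. On them, DTP against PC9 had 0 gains and a mean difference of -10.7 MHC regions in place of 1.00. ALDH-low cells then had 6 gains, 2 losses and a mean difference of 5.67 with erlotinib, ALDH-high cells 2 losses and a mean difference of 0, and ALDH-high against ALDH-low cells 0 gains, 1 loss and a mean of -1.33 under DMSO, and 0 gains and 0 losses under erlotinib. With a score of at least 100, DTP had 7 gains, ALDH-high cells 2 losses with erlotinib, and ALDH-high against ALDH-low cells 1 gain, 1 loss and a mean of 14 under DMSO, and 0 gains and 0 losses under erlotinib. With at least 50% of the region covered, ALDH-low cells had 21 gains with erlotinib and ALDH-high cells 4 gains over ALDH-low cells under DMSO. The cause of these moves beyond list length was not tested.

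Leaving out 1 library at a time gave 13 to 18 gains, 6 to 11 losses and a mean difference of -2.00 to 6.50 for DTP against PC9. There were 11 losses without DTP c or without PC9 a and 10 without PC9 c, and the mean difference was -2.00 without DTP b and -1.50 without DTP c. For erlotinib the ranges were 15 to 23 gains, 0 to 1 losses and a mean of 40.7 to 58.7 in ALDH-low cells (23 gains without erlotinib c, 21 without DMSO a), and 10 to 16 gains, 1 to 3 losses and a mean of 20.5 to 36.0 in ALDH-high cells (16 gains without erlotinib b). For ALDH-high against ALDH-low cells they were 4 to 9 gains, 0 to 1 losses and a mean of 18.7 to 23.5 under DMSO, and 1 to 4 gains, 2 to 4 losses and a mean of -9.17 to 9 under erlotinib (6.33 without ALDH-high erlotinib b, 9 without ALDH-low erlotinib a). The 12-library tests gave 11 to 13 regions for treatment and 0 to 1 for fraction. With fewer libraries a region needs fewer calls to count as gained or lost.

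With a replicate block that exchanged only libraries of the same letter, 3 MHC regions had an unadjusted p under 0.05 for treatment, in place of 10. In that block only a region that differed in every same-letter pair could go below 0.05. The other regions of the 10 did not differ in every pair, so they could not pass, and the lower number was fixed by the test's smallest attainable p. Libraries of the same letter did not deviate together (correlations of -0.0102 to 0.0125, and of -0.0185 to 0.0228 for other pairs), so the letters were not taken as pairs. Adjusted over regions able to reach p under 0.05, chosen after seeing the data, 10 of 23 MHC regions passed in place of 0. Of all 6480 such regions, 3135 passed. Depth limits every call, since it is unknown and an uncalled region need not be closed.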

Other observations

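Grouped by which groups called a region in at least 2 of 3 libraries, 85 MHC regions (31.6%) were called in all 6 groups, against 24.7% of all regions, and 60 (22.3%) in none, against 28.8%. Regions called in DTP alone by this count numbered 15 (5.58%, against 8.75% of all regions), and those in PC9 alone also numbered 15 (5.58%, against 4.81%).

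In the 42 regions of the telomeric stretch, the direction in the sorted cells depended on the setting. Lists of equal size gave lower mean counts with erlotinib in both fractions. ALDH-low libraries then called 11, 10 and 14 with erlotinib against 19, 17 and 13 with DMSO, which overlapped, and ALDH-high libraries 11, 12 and 13 with erlotinib against 18, 18 and 16 with DMSO, which did not. With the lists as deposited the counts were 23, 20 and 17 with erlotinib against 19, 17 and 13 with DMSO in ALDH-low cells, and 22, 18 and 24 with erlotinib against 23, 20 and 20 with DMSO in ALDH-high cells. With a minimum score of 100, ALDH-low means were 15.7 ± 2.89 with erlotinib and 11.7 ± 2.31 with DMSO. ALDH-high means were then 14.3 ± 3.21 with erlotinib and 16 ± 2.00 with DMSO. With 50% cover, ALDH-low means were 16.7 ± 2.52 with erlotinib and 13 ± 1.73 with DMSO. ALDH-high means were then 19 ± 4.58 with erlotinib and 18.7 ± 1.53 with DMSO. In the other 132 class I regions, equal lists gave 53, 53 and 54 with erlotinib against 45, 48 and 48 with DMSO in ALDH-low cells, and 48, 46 and 49 against 44, 43 and 50 in ALDH-high cells. The stretch was chosen after its values were seen, and these counts have no test.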
